A study of Mus musculus with 17 samples.

Results

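The response of adult mouse neural retinal progenitor cells (mNRPCs) to bFGF after 3 days of culture was described from the 4 RNA-seq libraries of day 3, out of 17 libraries in all, chosen by the treatment and day in their labels. The mNRPCs are cells grown from the neural retina of C57BL/6 mice 8 to 10 weeks old on a Matrigel coat, in a basic medium (BM, DMEM/F12 with the N2 and B27 supplements). The 4 media were BM alone, medium B, which adds bFGF to it, medium C, which adds CHIR99021, an inhibitor of the kinase GSK-3, and medium BC, which adds both agents, so bFGF was present in B and BC and left out of BM and C. The study propagates the cells in medium that holds both agents, and the labels give no dose for these libraries. Each medium was sequenced once on each day, the other days being 1, 5 and 7 besides a day 0 control. The labels do not say whether the libraries came from separate cultures or animals, and the spread behind the p-values is the difference between the 2 libraries of an arm, which includes whatever CHIR99021 did.

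bFGF (FGF2) binds FGF receptors on the cell surface and, through adaptor proteins and Ras, activates the kinases of the MAPK/ERK cascade. Active ERK switches on transcription factors of the ETS and AP-1 families, induces D-type cyclins and, with a delay, its own inhibitors such as the Sprouty proteins and the dual-specificity phosphatases. In neural progenitors of the retina and brain, bFGF is known as a mitogen that keeps cells dividing.

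The day 3 libraries held between 17843055 and 18216696 expected counts (estimated reads per gene, as deposited by the authors), against 17571973 to 19428744 over the series, and no pair of libraries was identical. The label was checked against marker genes. The progenitor and Müller glia genes Vim, Pax6, Sox2, Six3 and Sox9 were present in the 4 libraries, with the lowest at 18.6 FPKM (a level scaled by transcript length and sequencing depth), for Sox9 in BC. Rax, which marks progenitors of the embryonic retina, was at or below 0.07 FPKM, and the Müller glia genes Rlbp1 and Slc1a3 were at or below 0.06. Summed FPKM stayed at or below 1.28 for 13 photoreceptor markers, 1.57 for 9 markers of the retinal pigment epithelium and 1.06 for 8 endothelial markers, the last with 0.81 and 1.06 in BM and C against 0.19 and 0.24 in B and BC.

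The summed markers of further cell types differed between the arms. The summed FPKM of 10 pericyte and fibroblast markers was 471 in BM and 317 in C without bFGF and 32.8 in B and 47.8 in BC with it. On day 0 it was 29.2. Most of that sum was Acta2, a smooth muscle actin, and Pdgfrb, the PDGF receptor beta. Of these 10 genes, 5 passed the filter and 4 fell: Acta2, Pdgfrb, Col1a1 and Dcn, a matrix proteoglycan at 6.44 and 2.95 FPKM without bFGF and 0.39 and 0.90 with it. The fifth, Pdgfra, was between 3.87 and 5.27 FPKM in the 4 libraries, and Rgs5, Cspg4, Des, Lum and Col1a2 were at or below 0.21. The summed FPKM of 11 microglia and macrophage markers was 3.77 and 4.44 in BM and C and 37.1 and 13.9 in B and BC, almost all of it Cd68, a lysosomal protein, while C1qa, C1qb, C1qc and P2ry12 were at 0. The summed FPKM of 9 lens markers was 3.08 and 8.78 without bFGF and 0.28 and 0.21 with it, most of the former being Bfsp2, a filament protein of lens fibres, which fell. In these bulk samples, fewer cells of a type and less RNA per cell cannot be told apart.

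Rounded expected counts of the 11349 genes whose FPKM averaged at least 1 over the 4 libraries were compared between B and BC on one side and BM and C on the other (edgeR, quasi-likelihood test, Benjamini-Hochberg adjusted p under 0.05). With bFGF, 1461 genes rose and 1073 fell, which is 12.9% and 9.45% of the genes tested. Rose and fell, and levels given as from and to, compare libraries without and with bFGF on day 3. They do not refer to day 0. At least 2-fold changes were found in 792 of the genes that rose and 455 of those that fell. The median log2 fold change over all tested genes was -0.01. How these calls divide depends on the scaling. With library totals in place of TMM factors the median of all genes moved to -0.11 and the calls to 1204 higher and 1463 lower, and limma on log2(FPKM + 1) gave 1241 higher and 1504 lower, so the split by direction is relative to the scale chosen. In FPKM, both libraries with bFGF lay above both without in 3154 of the tested genes and below both in 4840. Such separation is thus common. Only 1 called gene lacked it, and the test favours separated genes because its spread is the difference within an arm. The 2 libraries of an arm set the spread. B and BC differed from each other at least 2-fold in 241 genes and BM and C in 51, on the log2(FPKM + 1) scale. Without BM 308 genes were called and without C 344, since the spread then came from B and BC alone, whereas 2427 were called without B and 4446 without BC.

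The genes with the largest rises common to both pairs of libraries (B against BM, and BC against C) were led by Gdf15 (gene 23886), a stress-induced cytokine of the TGF-beta superfamily. Gdf15 stood at 2.79 FPKM in BM and 3.26 in C without bFGF and 191 in B and 90.6 in BC with it. The libraries with bFGF were far above the others and B was the higher of them, and the log2 fold change was 5.64 with a standard error of 0.45 (edgeR adjusted p = 0.00687). Igfbp3 (gene 16009), a carrier of insulin-like growth factors, was at 1.07 and 0.77 FPKM in BM and C and at 27.3 and 32.5 in B and BC, a log2 fold change of 5.11 ± 0.21 (SE, edgeR adjusted p = 0.00419). Fosl1 (gene 14283), an AP-1 subunit that ERK stabilizes, was at 2.19 and 2.81 FPKM without bFGF and at 87.4 and 37.5 with it. The groups did not overlap for any of these genes. On day 0 Gdf15, Igfbp3 and Fosl1 were at 5.36, 39.2 and 109.7 FPKM. Igfbp3 and Fosl1 were thus below day 0 in all 4 day 3 libraries. Aqp8 (gene 11833), an aquaporin, was the one of the leading rises with BC well above B, at 7.29 and 3.31 FPKM in BM and C and 92.0 and 159 in B and BC. The other leading rises were Etv4, Prkg2, Dusp4 and Il33, of which Etv4, Dusp4 and Il33 are described with their families and Prkg2 encodes a cGMP-dependent kinase, the epithelial genes Sprr1a and Anxa8, the milk protein gene Csn3 and the uridine phosphorylase gene Upp1, with log2 fold changes between 3.79 and 4.23.

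**Figure D1:**
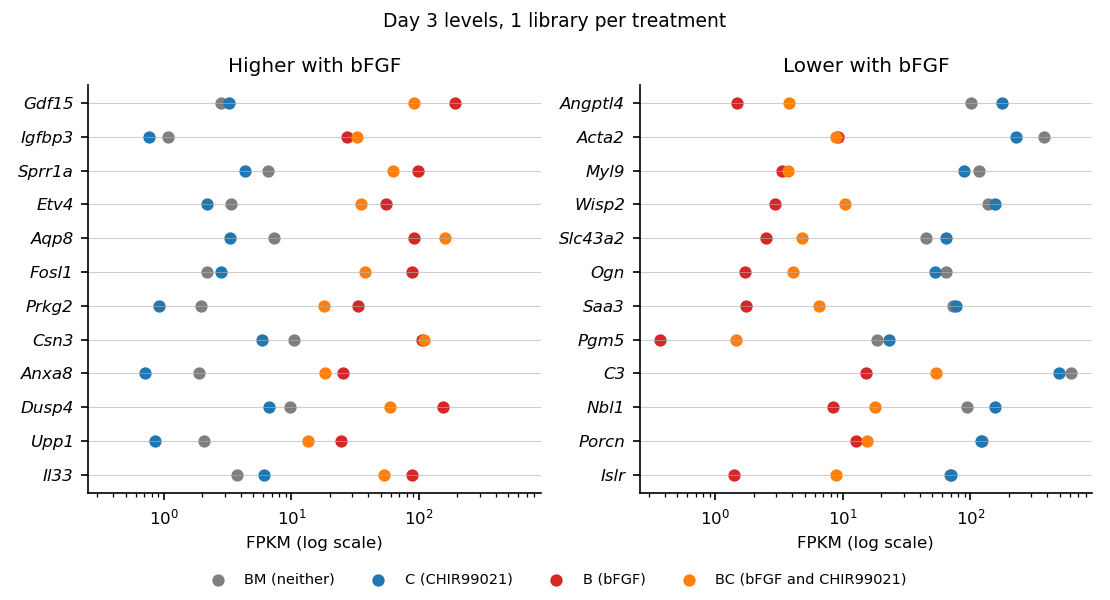
FPKM (log axis) of the 12 leading rises (left) and the 12 leading falls (right) in the 4 day 3 libraries, 1 point per library. The points of B and BC lie apart from those of BM and C for every gene. BC lies nearer to the libraries without bFGF than B does for every gene but Igfbp3, Aqp8, Csn3 and Acta2.

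The 12 leading falls included genes of smooth muscle proteins. In all 12, BM and C stood above the day 0 control. Day 0 held 24.6 FPKM for Acta2, 3.92 for Myl9, 10.95 for Angptl4, 1.66 for C3, 0.92 for Saa3 and 2.87 for Porcn. Acta2 (gene 11475) stood at 376 FPKM in BM and 226 in C without bFGF and 9.12 in B and 8.83 in BC with it. That is a log2 fold change of -5.00 ± 0.31 (SE, edgeR adjusted p = 0.00569), with the libraries with bFGF close together and far below the others. Myl9 (gene 98932), the regulatory light chain of smooth muscle myosin, was at 117 and 89.4 FPKM without bFGF and 3.36 and 3.68 with it. Pgm5, a protein of cell-matrix adhesions, was at 18.5 and 22.8 against 0.37 and 1.44. Angptl4 (gene 57875), a secreted inhibitor of lipoprotein lipase, had 101 and 175 FPKM in BM and C and 1.49 and 3.77 in B and BC, the largest fall of the 12. C3, the central complement component, was at 619 and 496 FPKM without bFGF and at 15.3 in B and 53.7 in BC, and Saa3, an acute-phase apolipoprotein, was at 72.3 and 76.6 against 1.75 and 6.46. Porcn, the enzyme that attaches the lipid Wnt proteins need for secretion, fell from 122 and 121 FPKM to 12.7 and 15.6, the leading fall with the smallest standard error (log2 fold change -3.03 ± 0.15). Wisp2, Slc43a2, Ogn, Nbl1 and Islr completed the 12, with log2 fold changes between -4.37 and -3.17. Acta2 is itself most of the summed pericyte and fibroblast markers given above, at 376 of 471 FPKM in BM and 226 of 317 in C. That sum therefore had to move with Acta2. Any part of such cells in these falls was not tested.

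Genes that report on the ERK cascade were taken as a list of 20, of which 17 passed the filter. Of these, 13 rose (76.5%) and 1 fell (5.88%), against 12.9% and 9.45% of all tested genes. The median log2 fold change was 1.78 against -0.01 for all tested genes. Spry4 and Spry2, inhibitors that ERK induces, rose from 1.94 and 1.17 FPKM to 13.2 and 7.94 and from 8.32 and 7.09 to 27.3 and 22. Dusp6, the phosphatase that removes the activating phosphates of ERK in the cytoplasm, was at 17.9 FPKM in BM and 9.75 in C without bFGF and 63.0 in B and 58.6 in BC with it (log2 fold change 2.24 ± 0.29, edgeR adjusted p = 0.010). Its nuclear relative Dusp4 went from 9.65 and 6.68 FPKM to 153 and 59.1, and the ETS factor Etv4 from 3.37 and 2.16 to 54.7 and 35.2 (log2 fold change 4.12 ± 0.33). In each of these genes both libraries with bFGF lay above both without. The member that fell was Il17rd (Sef), another inhibitor of FGF signalling, at 11.4 and 8.01 FPKM without bFGF and 5.72 and 4.73 with it (log2 fold change -0.80 ± 0.21, edgeR adjusted p = 0.0491). Without BM or without C, 6 and 5 members rose.

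Immediate early genes, mostly of the AP-1 and EGR families, are induced quickly and briefly by growth factors. Of 16 tested members 1 rose (6.25%) and 2 fell (12.5%), against 12.9% and 9.45% of all tested genes, and the median log2 fold change was 0.22. Fosl1 is not on this list, having been placed among the ERK genes. Fos fell from 5.68 and 6.12 FPKM to 1.82 and 2.09 (log2 fold change -1.49 ± 0.21, edgeR adjusted p = 0.0116), with no overlap between the groups. Btg2, an antiproliferative gene, fell from 20.6 and 26.3 FPKM to 8.11 and 5.69, and Klf4, a zinc finger factor, rose from 11.7 and 7.17 to 31.6 and 17.4. On day 1 the bFGF effect on Fos was 0.41 on the log2 scale and on Jun 0.62, and the day 3 effects of both were lower than those of day 1 (edgeR adjusted p = 0.00283 for Fos and 0.0380 for Jun). Over the whole list the median effect was 0.30, 0.22, 0.61 and 0.95 on days 1, 3, 5 and 7. On day 3, 3 members were lower and 0 higher than on day 1, and 7 were lower and 1 higher than on day 7. Among 8 tested genes of FGF receptors and ligands none fell and Fgf7 alone rose (12.5%), from 13.7 and 6.93 FPKM to 40.6 and 23.9. Fgfr1, the receptor with the highest level, was at 107 and 83.2 FPKM in BM and C and 87.5 and 67.8 in B and BC, so the groups overlapped.

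Nearly all mitotic genes were higher with bFGF than without it on day 3. Of 53 tested genes of G2 and mitosis 48 (90.6%) rose and none fell, against 12.9% and 9.45% of all tested genes. The median log2 fold change was 1.96. The mean log2(FPKM + 1) of the list was 5.72 on day 0, 4.78 in B, 4.44 in BC, 3.14 in BM and 3.07 in C. Both arms thus lay below day 0, the one with bFGF less so. Cdk1, the kinase that drives entry into mitosis, stood at 8.05 FPKM in BM and 7.68 in C without bFGF and 23.5 in B and 20.1 in BC with it (log2 fold change 1.57 ± 0.14, edgeR adjusted p = 0.00687). Its cyclin Ccnb2 went from 6.97 and 6.92 FPKM to 34.1 and 30.5, and Plk1, the kinase that assembles the spindle, from 11.6 and 11.7 to 45.4 and 34.4. Top2a, the topoisomerase that untangles chromosomes, and Ube2c, a ubiquitin carrier of the anaphase-promoting complex, reached 71.7 and 161 FPKM in B and 51.0 and 109 in BC, from 13.9 to 21.8 in BM and C. The libraries without bFGF were almost equal to each other in these genes, and B was above BC in each of them. The difference of log2(FPKM + 1) was larger in the B pair than in the BC pair in 50 of the 53. In size, the B pair was the larger in 72.6% of all called genes, so such a gap was common. The rise was called in 34 members without BM and in 33 without C.

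Genes of DNA replication rose in part, where 12.9% of all tested genes rose and 9.45% fell. The mean log2(FPKM + 1) of the S-phase list was 4.88 on day 0, 3.185 in B, 3.00 in BC, 2.45 in BM and 2.51 in C. Both arms thus lay below day 0 here as well. Of 42 tested S-phase genes 26 rose and none fell, with a median log2 fold change of 0.90, and the count was 2 without BM and 3 without C. The largest rise was that of E2f8, a repressor of the E2F family that accumulates late in S phase, from 0.76 and 1.06 FPKM to 5.32 and 5.07 (log2 fold change 2.58 ± 0.26). Pcna, the sliding clamp of the DNA polymerases, went from 25.9 and 33.2 FPKM to 45.3 and 42.5, a log2 fold change of 0.67. Mcm5 and Mcm2, subunits of the replicative helicase, had log2 fold changes of 1.66 and 0.95. Tyms, the thymidylate synthase gene, was at 7.75 and 8.72 FPKM without bFGF and at 7.94 and 8.05 with it.

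Among 18 G1 cyclins, kinases and E2F factors 6 rose (1 without BM, 1 without C and 10 without BC) and 1 fell. Ccnd1, cyclin D1, was at 116 and 79.7 FPKM in BM and C and 420 and 252 in B and BC (log2 fold change 1.88 ± 0.33, edgeR adjusted p = 0.0183). Ccnd2 was at 36.7 and 38.3 FPKM without bFGF and at 33.0 and 33.2 with it, and Ccne1, cyclin E1, had a log2 fold change of 0.46 that did not pass (edgeR adjusted p = 0.390). Rb1, the retinoblastoma protein gene, fell from 7.91 and 7.19 FPKM to 4.87 and 3.60. Genes for inhibitors of the cyclin-dependent kinases rose as well, 4 of 8 with none falling (2 without BM and 2 without C). Cdkn1a (p21) stood at 3.27 FPKM in BM and 7.13 in C without bFGF and 27.1 in B and 27.0 in BC with it, a log2 fold change of 2.47 ± 0.36 (edgeR adjusted p = 0.0130). Cdkn2a, which encodes p16 and p19ARF, went from 153 and 154 FPKM to 332 and 278, and Cdkn2d and Cdkn3 had log2 fold changes of 0.78 and 1.99. Cdkn1a is also a p53 target. Of 16 tested it alone rose, Mdm2 was at 15.8 and 17.6 FPKM without bFGF and 19.1 and 18.1 with it, and Sesn1, Trp53inp1 and Fas fell with log2 fold changes of -1.24, -1.07 and -1.10. The rise is 6.25% of the p53 targets and the falls 18.8%, against 12.9% and 9.45% of all tested genes. No p53 target fell without BM and 1 did without C.

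**Figure D2:**
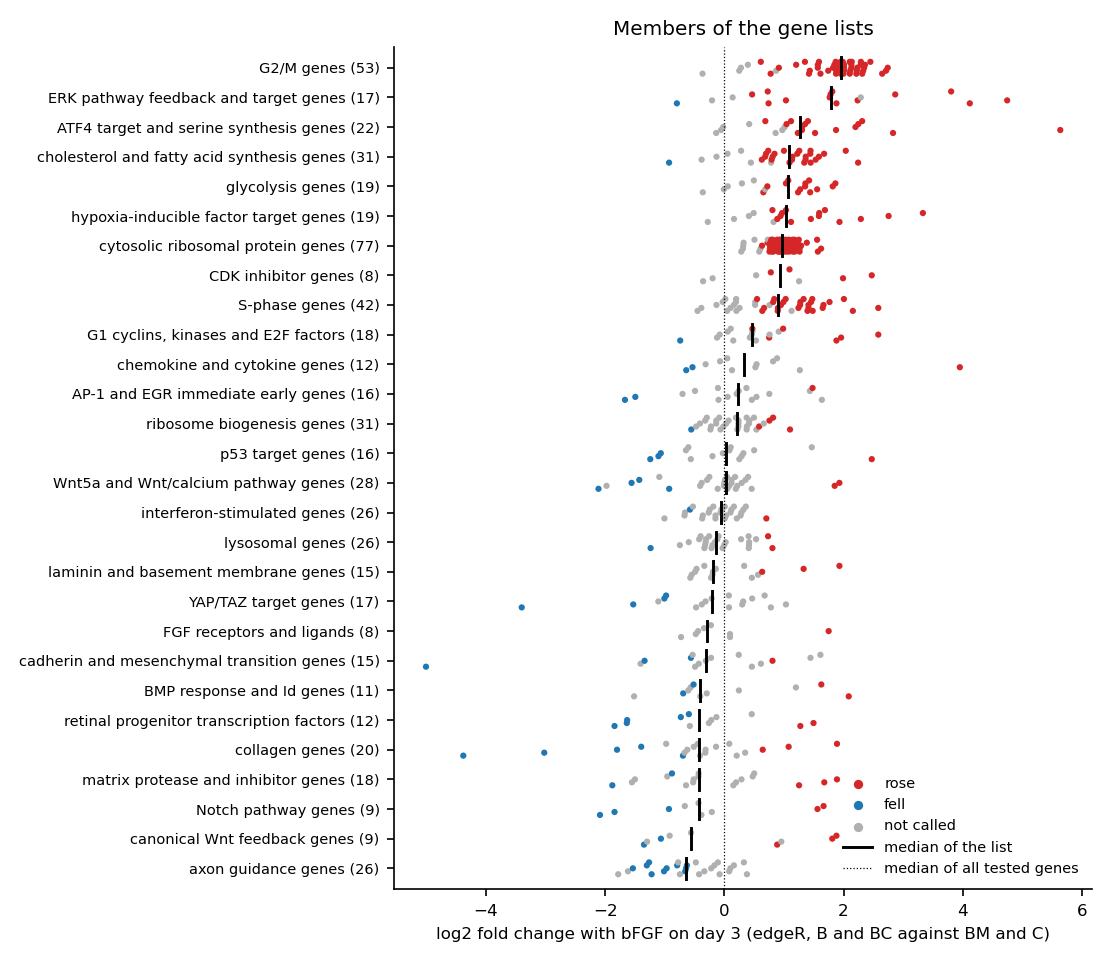
Log2 fold change with bFGF on day 3 (x axis) for each tested member of the 28 gene lists (rows, with the number of members tested), coloured by call, with the median of each list as a bar. The G2/M genes lie furthest to the right with a median of 1.96, and the axon guidance genes furthest to the left with a median of -0.64.

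The promoters of the mitotic genes are shown because these genes moved as a group. Many of them carry the cell cycle homology region (CHR), a short element through which the DREAM complex holds them silent in resting cells, a few turns downstream of CCAAT boxes bound by NF-Y. RefSeq start sites on GRCm38.p6, the assembly of the mm10 label of the files, gave a 300-base promoter (250 bases before the start and 50 after it) for 47 of the 53 listed genes and for 9131 of the tested ones. TTTGAA on either strand was found for 34 of the 47, or 72.3%, against 14.2% of the tested genes, 19.2% of those that rose, 13.2% of those that fell and 20.2% of all 27025 genes with a promoter. CCAAT on either strand was found for 76.6% of the mitotic genes and 44.0% of the tested genes. In 11 of the 47 promoters a match starts within 60 bases before the start site. The 5 windows shown were picked from these 11 after they were seen and all hold CCAAT or its reverse complement ATTGG, which the windows of Tmpo and Ckap5 do not. They end at a TTTGAA match that starts 15, 23, 29, 19 and 18 bases before the start site in the order given. They are written 5′ to 3′ on the strand of the gene, and capitals mark TTTGAA and CCAAT or their reverse complements TTCAAA and ATTGG.
Cdk1, chr10:69352922-69352987, minus strand: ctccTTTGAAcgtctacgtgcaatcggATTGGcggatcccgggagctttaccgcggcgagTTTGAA
Top2a, chr11:99024207-99024272, minus strand: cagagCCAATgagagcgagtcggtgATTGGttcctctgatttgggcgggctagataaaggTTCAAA
Ube2c, chr2:164769840-164769905, plus strand: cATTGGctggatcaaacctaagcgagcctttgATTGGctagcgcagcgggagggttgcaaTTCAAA
Kif11, chr19:37376303-37376368, plus strand: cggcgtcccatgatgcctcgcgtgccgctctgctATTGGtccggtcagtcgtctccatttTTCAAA
Cdc20, chr4:118437356-118437421, minus strand: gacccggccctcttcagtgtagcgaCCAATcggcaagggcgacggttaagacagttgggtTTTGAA
The E2F letters TTTCCCGC or TTTGGCGC were found on either strand for 32.3% of 31 S-phase genes with a promoter, against 3.64% of the tested genes. TGANTCA, the AP-1 letters, was found for none of 17 immediate early genes, for 9.41% of the genes that rose and for 6.06% of those that fell. The remaining 2 genes shown, Kif11, a spindle motor, and Cdc20, an activator of the anaphase-promoting complex, rose by 2.29 and 2.14 on the log2 scale. A match says only that these letters are in the window.

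Of 77 tested genes of cytosolic ribosomal proteins 69 (89.6%) rose and none fell, against 12.9% and 9.45% of all tested genes. The median log2 fold change was 0.96. Rpl12 had the largest rise, from 435 FPKM in BM and 545 in C to 1370 in B and 1455 in BC (a log2 change of 1.62 ± 0.18, edgeR adjusted p = 0.00818). Rpl10a went from 302 and 353 FPKM to 655 and 709, and Rpl10 from 785 and 1142 to 1225 and 1525, which did not pass. C was above BM in each of these genes. Ribosomal protein genes have many processed copies that share reads, so single members are uncertain, and the count depended on the scaling and on single libraries: 36 rose in limma after quantile normalization, none without BM and 4 without C. Of 31 tested genes that build ribosomes in the nucleolus, 4 rose (Npm1, Ncl, Fbl and Gnl3, with log2 fold changes of 1.10, 0.58, 0.76 and 0.82), which is 12.9%, as over all tested genes, and Bop1 fell by 0.55, with a median of 0.22. The rises numbered 0 without BM or without C, 1 without B, 10 without BC and 1 with no filter.

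Most genes of glycolysis and of the hypoxia response rose with bFGF. Among 19 glycolysis genes 13 rose (68.4%) and none fell, against 12.9% and 9.45% of all tested genes. Their median log2 fold change was 1.07. Gpi1, which converts glucose 6-phosphate to fructose 6-phosphate, stood at 489 and 629 FPKM in BM and C and 1869 and 1936 in B and BC. Pgk1, Ldha and Pfkp rose with log2 fold changes of 1.82, 1.56 and 1.36, while Hk2, a hexokinase, was at 34.7 and 49.9 FPKM without bFGF and 31.9 and 29.9 with it. Of 19 tested targets of the hypoxia-inducible factors 14 rose (73.7%) and none fell, with a median of 1.03. Car9, a carbonic anhydrase that extrudes acid, went from 28.6 and 32.0 FPKM to 171 and 213 (log2 fold change 2.76 ± 0.17, edgeR adjusted p = 0.00569). Ndufa4l2, a mitochondrial protein, had the largest rise of the list, from 0.42 and 0.89 FPKM to 4.32 and 7.89. Vegfa, the vascular growth factor, rose from 33.2 and 50.4 FPKM to 107 and 104, and Bnip3 and Egln3 had log2 fold changes of 1.03 and 1.12. C was above BM in Vegfa, Bnip3 and Egln3. The counts of 13 and 14 became 1 and 2 without BM, and 6 and 6 without C.

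Most genes of lipid synthesis and of the amino acid response were also called. Of 31 genes of cholesterol and fatty acid synthesis 24 rose (77.4%) and 1 fell (3.23%), with a median log2 fold change of 1.09. Over all tested genes 12.9% rose and 9.45% fell. The mean log2(FPKM + 1) of the lipid list was 6.39 on day 0, 5.68 in B, 5.735 in BC, 4.87 in BM and 4.90 in C, so both arms lay below day 0. Sqle, the squalene epoxidase of cholesterol synthesis, was at 32.0 and 36.9 FPKM in BM and C and 67.8 and 69.7 in B and BC (log2 fold change 1.09 ± 0.14, edgeR adjusted p = 0.00932). Hmgcs1, an earlier enzyme of the pathway, rose from 61.7 and 54.9 FPKM to 92.3 and 82.9. The groups did not overlap for either gene. Ebp, a sterol isomerase, fell by 0.93 on the log2 scale. Of 22 tested targets of ATF4 and genes of serine synthesis 15 rose (68.2%) and none fell, with a median of 1.27, Gdf15 being the largest. Trib3, a pseudokinase induced by stress, was at 7.21 and 8.06 FPKM without bFGF and at 34.0 and 33.9 with it (log2 fold change 2.25 ± 0.14). Asns, asparagine synthetase, and Psat1, of the serine pathway, rose by 1.87 and 1.04, while Phgdh, the first enzyme of that pathway, was at 240 and 203 FPKM against 310 and 242 and did not pass. The counts of 24 and 15 became 5 and 5 without BM, and 4 and 6 without C.

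Transcription factors of the retinal progenitor program went both ways. Of 26 genes 12 passed the filter, 2 rose (16.7%, against 12.9% of all tested genes) and 5 fell (41.7%, against 9.45%), and the median log2 fold change was -0.42. Pax6, the factor that defines the eye field, stood at 207 and 175 FPKM in BM and C and 33.8 and 82.3 in B and BC (log2 fold change -1.63 ± 0.41, edgeR adjusted p = 0.0447). The groups did not overlap, and BC held more than B. Six3 and Sox2 were lower in both libraries with bFGF, at 44.9 and 53.4 FPKM against 62.9 and 60.5 and at 40.4 and 59.5 against 69.3 and 89.9, but did not pass. Meis1, Meis2 and Tbx2 fell with log2 fold changes of -0.60, -0.73 and -1.64, whereas Nr2f1, an orphan nuclear receptor, rose from 16.5 and 18.4 FPKM to 49.0 and 41.7 and Sox11 rose by 1.28. The fifth fall was Hes1, a target of Notch that represses neuronal differentiation, from 24.2 and 19.0 FPKM to 6.66 and 4.63. None of the list's members fell without BM, 1 did without C and 3 without B, and 1 did with no filter on low values.

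The Notch pathway itself was mixed. Of 9 tested genes 3 fell (none without BM, 1 without C and 5 without BC) and 2 rose. That is 33.3% and 22.2%, against 9.45% and 12.9% of all tested genes. Notch2, a receptor, fell from 193 FPKM in BM and 178 in C to 28.5 in B and 53.5 in BC (a log2 change of -2.09 ± 0.32, edgeR adjusted p = 0.0144), and Notch1 from 26.9 and 32.0 to 11.9 and 17. Rbpj, the DNA-binding partner of the receptors, rose from 56.9 and 40.2 FPKM to 183 and 104, and Notch3 rose by 1.56. Among 11 tested BMP response genes Id1 and Bmp2 rose and Bmpr1a and Bmpr2 fell, which is 18.2% each way. Id1, an inhibitor of basic helix-loop-helix factors, went from 16.8 and 15.9 FPKM to 61.3 and 32.9, while Id3 was at 213 and 231 FPKM without bFGF, 113 in B and 225 in BC.

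Wnt genes were described because the study concerns the Wnt5A/calcium pathway. Of 28 tested genes of that pathway 2 rose (7.14%) and 4 fell (14.3%), against 12.9% and 9.45% of all tested genes, with a median log2 fold change of 0.03. The falls numbered 1 without BM, none without C, 8 without BC and 7 in limma on log2(FPKM + 1). Wnt5a was at 34.9 FPKM in BM and 38.4 in C without bFGF and 11.2 in B and 21.4 in BC with it, a log2 fold change of -1.09 ± 0.32 that did not pass (edgeR adjusted p = 0.0629). Both libraries with bFGF lay below both without, which holds for 4840 of the 11349 tested genes. Ryk, a Wnt5a receptor, fell from 84.1 and 88.4 FPKM to 36.8 and 48.3, and Fzd6, Wnt7b and Wnt11 fell by 1.56, 1.43 and 2.11 on the log2 scale. Fzd4, another receptor, rose from 0.70 and 0.39 FPKM to 2.09 and 1.80, and Itpr2, a channel that releases calcium from the endoplasmic reticulum, from 6.11 and 5.49 to 23.0 and 16.4. Of 9 tested feedback genes of canonical Wnt signalling, which CHIR99021 is meant to switch on, 3 rose (Ccnd1, Myc and Tcf7) and 2 fell (Tcf7l1 and Tcf7l2, log2 fold changes of -1.35 and -1.06), and no member rose without BM or without C. Axin2, the feedback gene most often used as a readout of beta-catenin, was at 8.89 and 18.9 FPKM in BM and C and 4.47 and 9.51 in B and BC. It was higher with CHIR99021 within each arm, and its bFGF difference did not pass (log2 fold change -0.92, edgeR adjusted p = 0.215).

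Axon guidance genes that were called were lower with bFGF, and matrix genes went both ways. Over all tested genes 12.9% rose and 9.45% fell. Of 26 tested axon guidance genes none rose and 10 (38.5%) fell, with a median log2 fold change of -0.64, and 1 fell without BM as without C. Efnb1, an ephrin, had the largest fall among the called members, from 25.8 FPKM in BM and 32.6 in C to 8.21 in B and 10.7 in BC (a log2 change of -1.53 ± 0.19, edgeR adjusted p = 0.00968). Sema3c, a secreted repellent, fell from 84.1 and 71.2 FPKM to 30.6 and 29.9, and Slit2 by 0.63. Of 20 tested collagen genes 5, or 25%, fell (Col4a4, Col12a1, Col1a1, Col6a2 and Col6a1, log2 fold changes of -4.38, -3.02, -1.80, -1.39 and -0.69). Another 3, or 15%, rose (Col18a1, Col8a1 and Col5a3, log2 fold changes of 1.89, 1.08 and 0.64). The falls numbered 2 without BM, 2 without C, 10 without BC and 1 at a mean of at least 5 FPKM, and the rises 1 without BM and 1 without C. Among 15 genes of laminins and basement membranes Fbln2, Fbln1 and Fn1 rose, which is 20% (1 member without BM and 1 without C), and none fell. Of 18 tested matrix proteases and inhibitors Timp1, Mmp9 and Plaur rose (16.7%) and Timp3 and Timp2 fell (11.1%), near the shares of all tested genes. Timp3 went from 383 and 645 FPKM to 109 and 153, and no member rose without BM or without C.

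Targets of YAP and TAZ, factors that respond to tension and cell contact, included no rise, and 4 of 17 fell (1 without BM and 2 without C). The falls are 23.5%, where 12.9% of all tested genes rose and 9.45% fell. Ctgf (CCN2) fell from 20.6 FPKM in BM and 23.8 in C to 2.63 in B and 1.30 in BC (a log2 change of -3.40 ± 0.34, edgeR adjusted p = 0.00709), and Crim1, Ajuba and Nuak2 fell by 1.53, 1.01 and 0.98 on the log2 scale. Its family member Cyr61 (CCN1) was at 412 and 309 FPKM without bFGF, 463 in B and 115 in BC, so the groups overlapped and B and BC differed. Of 15 tested genes of cadherins and mesenchymal transition Snai2 rose (6.67%). Acta2, Tgfb3 and Zeb1 fell, which is 20% (1 member without BM and 6 without BC). Among 12 tested chemokines and cytokines Il33, an alarmin of the interleukin-1 family, rose from 3.73 and 6.09 FPKM to 88.6 and 53.5, and Ccl2 and Ccl7 fell by 0.64 and 0.53. That is 8.33% and 16.7% of the 12. The interferon-stimulated genes had 1 rise (Ifi44) and 1 fall (Ifi27) in 26, and the lysosomal genes 2 rises (Npc2 and Glb1) and 1 fall (Ctsf) in 26, with medians of -0.06 and -0.14.

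The B and BC libraries were then set side by side. Each pair is a difference between single libraries, with no replicate check. At least 2-fold higher were 721 genes (6.35%) in B against BM and 552 (4.86%) in BC against C, and at least 2-fold lower were 757 (6.67%) and 381 (3.36%). Calls were made on these same 4 libraries, with the difference within an arm as the spread. That selection favours genes with the same direction in both pairs, so their agreement is no separate check. The difference of log2(FPKM + 1) had the same sign in both pairs for 2533 of the 2534 genes called. The exception was Snapc3, a subunit of a small nuclear RNA transcription complex, whose levels of 9.38 FPKM in BM and 9.92 in C without bFGF and 10.5 in B and 8.26 in BC with it did not carry the fall of its counts. Among the called genes the B pair had the larger difference in 1839, or 72.6%, with a median size of 0.94 against 0.79 in the BC pair. Over all tested genes 17.6% had opposite signs, and the differences of the pairs correlated across genes with a Pearson r of 0.86 and a Spearman rho of 0.82. Genes are not independent replicates.

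**Figure D3:**
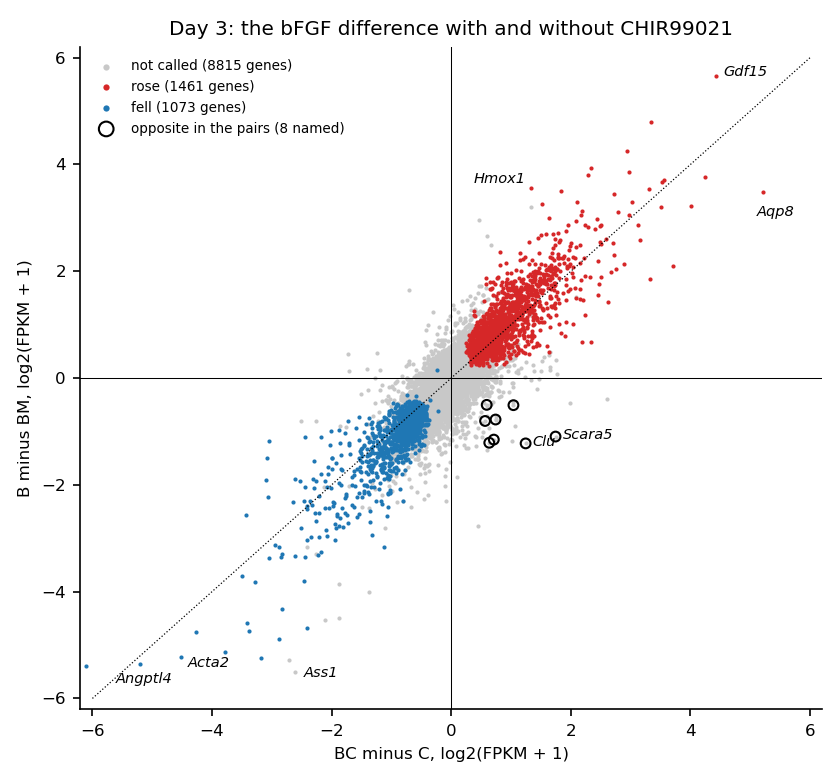
Difference of log2(FPKM + 1) in B against BM (y axis) and in BC against C (x axis) on day 3, 1 point per tested gene, coloured by call, with the diagonal dotted. Red and blue points lie along the diagonal, steeper than it on both sides, and the 8 circled genes lie below 0 in the B pair and above 0 in the BC pair.

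Opposite directions of at least 0.5 in each pair were found in 20 genes, 8 of them averaging at least 10 FPKM, and the 8 went the same way: lower in B than in BM, and higher in BC than in C. Clu, the extracellular chaperone clusterin, was at 49.9 and 16.3 FPKM in BM and C and 20.8 and 40.1 in B and BC. Scara5, a scavenger receptor for ferritin, was at 21.5 FPKM in BM and 7.16 in C without bFGF and 9.51 in B and 26.3 in BC with it. In both genes the single agents gave the lower values and BM and BC the higher ones. Gmpr, Zbed5, Col11a1 and Mrc2 were also lower in C than in BM and higher in BC than in B, as was Dmpk, where C was close to BM, at 117 and 125 FPKM. Cdhr5, a member of the cadherin superfamily, was higher in C than in BM, at 15.5 and 10.6 FPKM, with 7.17 in B and 32.9 in BC. These were chosen for the direction of their pairs, so no test is given.

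Among genes averaging at least 10 FPKM, the largest gaps towards the B pair included feedback inhibitors and targets of growth factor signalling. Errfi1 (gene 74155), an inhibitor of the EGF receptor, was at 12.8 and 14.3 FPKM in BM and C and 77 and 23.3 in B and BC. Dusp5, a nuclear ERK phosphatase, was at 4.15, 4.38, 31.6 and 7.16 FPKM in the same order. In both genes B stood far above the other 3 libraries and BC was the next, and neither passed the threshold for the bFGF effect. Nppb, a natriuretic peptide, was at 36.7 FPKM in B and 6.36 in BC, and Egr1, an immediate early factor, was at 29.5 in B and 4.87 in BC, below the 21.4 of BM and the 18.5 of C. Hmox1, heme oxygenase 1, was at 25.8 FPKM in BM and 56.4 in C without bFGF and 314 in B and 143 in BC with it, and was the only one of these 6 genes past the threshold. Tmem254b, with 0.48 FPKM in BM against 14.1 in C, has near-identical copies that share its reads, and its value is uncertain.

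The largest gaps the other way were mostly genes that were lower with bFGF in both pairs but less so in BC. Ass1, argininosuccinate synthase, stood at 1106 and 1085 FPKM in BM and C and 23.5 and 177 in B and BC. Mab21l1, an eye development gene, was at 133, 97.4, 7.30 and 37.2 FPKM in the same order, and Postn, the matrix protein periostin, at 45.8, 48.8, 0.21 and 6.61. BC lay between B and the libraries without bFGF in each of them. The predicted gene Gm5601 was listed at 21.5, 16.6 and 3.81 FPKM in BM, C and BC and at 0 in B. Clu and Scara5 completed the 6. The interaction of bFGF and CHIR99021 on day 3 was tested against the departures from additivity on the other days, and 2 genes passed, 1162 having an unadjusted p under 0.05. Errfi1 had an interaction of -1.93 on the log2 scale (edgeR adjusted p = 0.0221), a smaller difference with CHIR99021 present. The other, Gm4724, a predicted gene, had 3.50 (edgeR adjusted p = 0.0221), with 3.07 FPKM in BM and 0.84 in C without bFGF and 1.94 in B and 6.25 in BC with it. DESeq2 called 39 genes in the same model and limma none, of 1186 with an unadjusted p under 0.05.

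**Figure D4:**
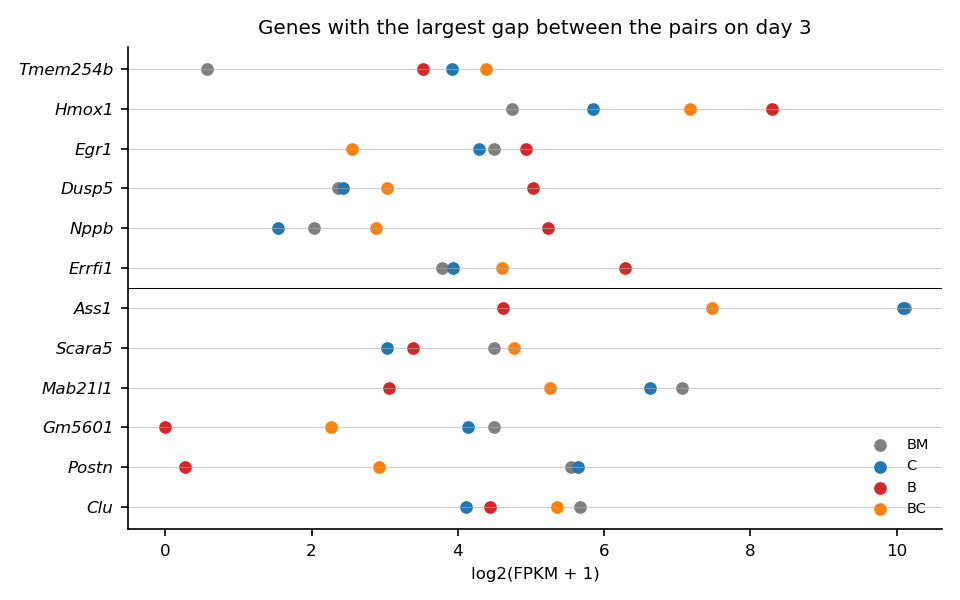
Level of the 12 genes with the largest gap between the pairs, as log2(FPKM + 1), in the 4 day 3 libraries, with the gaps towards the B pair above the line and those towards the BC pair below it. BC lies between B and the libraries without bFGF for every gene but Tmem254b, Egr1, Scara5 and Clu.

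Day 3 was compared with the other days in 1 model of the 16 cultured libraries, over 11272 genes, with a bFGF effect for each day. The 3 comparisons share the day 3 libraries. The day 3 effect was higher than that of day 1 in 990 genes (8.78%) and lower in 783 (6.95%). Against day 5 it was higher in 2329 (20.7%) and lower in 1826 (16.2%), and against day 7 higher in 2568 (22.8%) and lower in 2317 (20.6%). The split depended on the method: limma on log2(FPKM + 1) gave 3952 higher and 642 lower against day 5 and 4763 and 915 against day 7. The median effect over all genes lay between -0.02 and 0.04 on every day. Among the 28 lists, the mitotic genes had the largest shift of the median effect between day 1 and day 3. Their median effect was 0.04 on day 1 and 1.96 on day 3, and 46 of 53 were higher on day 3 (edgeR adjusted p under 0.05), as were 23 of 31 genes of lipid synthesis, whose median went from -0.14 to 1.09, and 44 of 77 ribosomal protein genes, from 0.18 to 0.96.

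The ERK genes were already higher on day 1, with a median of 1.06 against 1.78 on day 3, and 3 of 17 differed between the days. The ribosome biogenesis genes went the other way, with a median of 0.61 on day 1 and 0.22 on day 3, and 9 of 31 were lower on day 3. Against day 7, 77 of 77 ribosomal protein genes had a lower effect on day 3 (median 2.46 on day 7), and so had 29 of 53 mitotic genes (2.77) and 14 of 19 hypoxia targets (2.01). For the ERK genes 2 were higher and 2 lower on day 3 than on day 7.

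**Figure D5:**
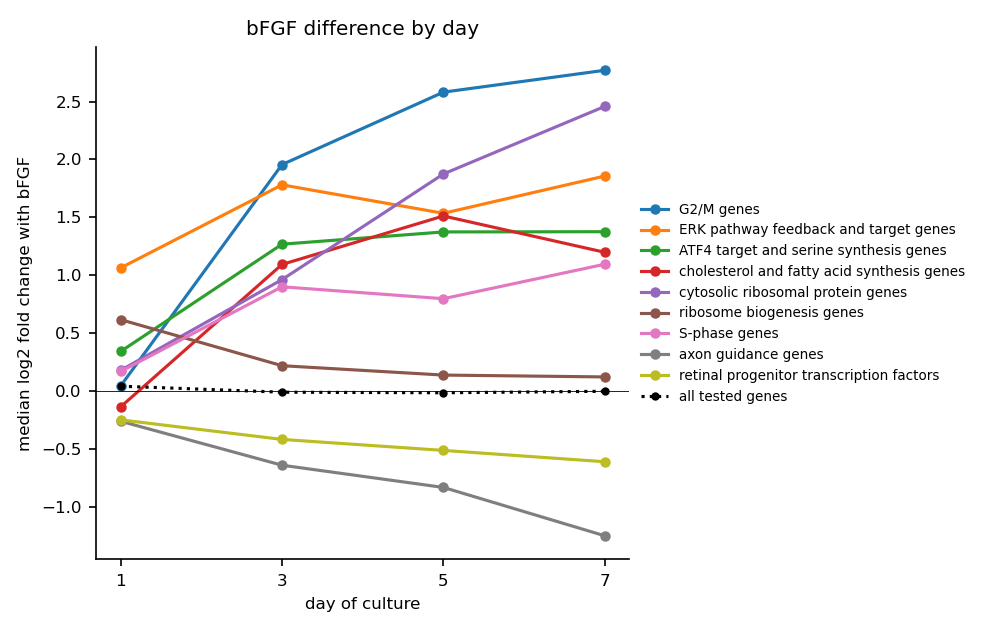
Median log2 fold change with bFGF (y axis) of 9 gene lists and of all tested genes on days 1, 3, 5 and 7 of culture (x axis). The G2/M genes go from 0.04 to 1.96 between days 1 and 3, the ERK genes are at 1.06 on day 1 already, and the median of all tested genes stays near 0.

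A bFGF effect on day 3 that was higher than on each of the other days was found in 66 genes and one that was lower in 54, of which 28 and 46 averaged at least 10 FPKM. These genes were chosen for these contrasts, which are given as a description. Tm7sf2, a sterol reductase of cholesterol synthesis, had effects of -0.32, 0.99, -0.39 and 0.14 on days 1, 3, 5 and 7, with 7.15, 7.02, 12.9 and 13.4 FPKM in BM, C, B and BC on day 3. Gstm7, a glutathione transferase, had effects of -0.86, 1.21, 0.23 and 0.17, and Naaa, a lysosomal amidase, of -0.42, 0.78, -0.13 and -0.08. Zfp467 and Per3, a circadian clock gene, had day 3 effects of 0.84 and 0.34 with negative effects on the other days, and Hacd4 had 0.09 against -1.08, -0.89 and -0.92. Among the lower ones, Pdpn, podoplanin, was at 338 and 344 FPKM in BM and C and 175 and 203 in B and BC, with effects of 0.39, -0.75, 0.46 and 0.64. Pea15a, a protein that keeps ERK in the cytoplasm, had effects of 0.11, -1.08, 0.11 and 0.71, and Sdc1, syndecan 1, of 0.29, -0.71, 0.37 and 0.29. Ivns1abp, Lmbr1l and Scpep1 had day 3 effects of -1.15, -0.62 and -1.11.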

How the data were processed

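PolyA RNA of mNRPCs was sequenced on the BGISEQ-500 in 17 libraries. The 4 of day 3 were analysed here, with the 16 cultured libraries used for the comparison of days. Per the submitters' processing notes, the authors mapped reads to mm10 with Bowtie2 and used RSEM, while the paper's methods name eXpress, and versions are not given in the sources used here. Per gene and library, the authors deposited 2 values, an expected count (estimated reads, not always whole because shared reads are split) and an FPKM, listed from 0.01. Genes missing from a library's list were set to 0. Whether counting used strand is not given, so overlapping and antisense genes cannot be told apart.

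The test was edgeR's quasi-likelihood F test (version 4.0.16, R 4.3.3, TMM scaling) on rounded expected counts, with bFGF as the only term, for genes averaging at least 1 FPKM, and calls needed a Benjamini-Hochberg adjusted p under 0.05. A model of the 16 cultured libraries, with a day level and a bFGF effect per day, gave the differences between days, and one with CHIR99021 added per day gave the interaction. Standard errors were derived from the quasi-likelihood F values. Pair differences are of log2(FPKM + 1). DESeq2 1.42.0, limma 3.58.1 and other filters, scalings and designs were alternatives. Tested on simulated data with 200 changed genes of 11349, the day 3 fit recovered 83% of changes of 1 on the log2 scale and 100% of changes of 2, with 11 false calls. The simulation gave every gene the same spread in both arms. In the data B and BC differed more than BM and C, so these figures do not give the error rates of the calls made here. The biological coefficient of variation of the day 3 fit was 16.5%. Without replicates of a treatment, this holds the CHIR99021 effect.

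The 28 gene lists, the markers and the members were chosen with earlier results of these data known. Genes were named by a rule: of each list, the first 4 tested members and the largest called rise and fall; among genes averaging at least 10 FPKM, the 12 rises and 12 falls with the largest smaller pair difference (called, with an expected count of at least 10 in each library and the same direction in both pairs), up to 10 genes with opposite pair differences of at least 0.5, the 6 largest gaps each way, and 6 genes each way whose day 3 effect differed from days 1, 5 and 7. Where at most 5 members of a list rose or fell, all were named after their values were seen, as were Snapc3, the lens, neuronal and glial markers of the closing section, and Kif11 and Cdc20 for their promoters. Promoters were taken from RefSeq. Python 3.11.15 with pandas 2.3.3 and matplotlib 3.10.9 handled tables and plots. Some items that the rule names are not reported here.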

Additional observations from a re-analysis of the deposited data

Results flagged for a closer look

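Between days, the bFGF effect on day 3 differed from that on day 1 in 1773 genes, from that on day 5 in 4155 and from that on day 7 in 4885 (edgeR adjusted p under 0.05 for the difference of effects). The day 3 effect was above those of all 3 other days, each by the test of the difference, for 6 named genes. Given as day 3 minus day 1 on the log2 scale, Gstm7 stood at 2.07, Zfp467 at 1.90, Tm7sf2 at 1.31, Naaa at 1.20, Hacd4 at 1.17 and Per3 at 1.06. It was below them for another 6, with Ivns1abp at -1.43, Pea15a at -1.19, Pdpn at -1.15, Sdc1 at -1.0, Lmbr1l at -0.94 and Scpep1 at -0.88.

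With CHIR99021 present or absent, the day 3 bFGF effect differed by the test of the interaction for Gm4724 (3.50 on the log2 scale) and Errfi1 (-1.93). In 8 genes the B and BC pairs moved in opposite directions, and these differences were not tested. The B pair minus the BC pair was -2.84 for Scara5, -2.47 for Clu, -1.86 for Gmpr, -1.85 for Col11a1, -1.55 for Cdhr5, -1.52 for Zbed5, -1.37 for Dmpk and -1.09 for Mrc2, in units of log2(FPKM + 1).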

How the results depend on the processing

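Of the day 3 bFGF calls, 2534 in all, 1461 higher and 1073 lower, the lower count was 709 with no filter on low values, where 17262 genes were tested. With CHIR99021 as a block that pairs B with BM and BC with C, 4096 genes were called, 1970 of them lower. The pairing comes from the treatments, since the labels number every library 1. The day 3 contrast from 16 libraries gave 5694, with 2879 higher and 2815 lower. Leaving out 1 library gave between 308 and 4446 calls, 190 to 2281 higher and 118 to 2165 lower. The share of calls that were higher was 57.7%, and 45.1% with library totals, 45.2% in limma on log2(FPKM + 1) and 45.6% with 0.1 in place of 1. Of 154 named genes, 101 lost the call without BM, 90 without C and 37 with no filter, none lost it with the block, and Snapc3 turned to 0.045 on the log2 scale in limma after quantile normalization. With CHIR99021 as an additive term, day 3 differed from day 1 in 2903 genes, 1513 higher and 1390 lower. In limma the day 3 effect was higher than that of day 5 in 3952 genes and lower in 642, and against day 7 in 4763 and 915. The interaction was called in 0 genes by limma, with 1186 at an unadjusted p under 0.05, and in 39 by DESeq2. Genes with opposite pairs numbered 42 with log2(FPKM + 0.1), 3 with a minimum difference of 1 and 8 with a mean FPKM of at least 10, against 20. Except where a value above says so, the cause was not tested. With 1 library per treatment and day, no replicate check of a single medium is possible.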

Other observations

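Lens genes were among the largest falls, chosen here after their values were seen. Crygs, a crystallin of the lens, stood at 47.6 and 107 FPKM in BM and C and at 0.16 and 0.56 in B and BC (log2 fold change -7.62 ± 0.68, edgeR adjusted p = 0.00687). Bfsp2, a filament protein of lens fibres, was at 2.02 and 8.01 FPKM without bFGF and at 0.07 in both libraries with it. C held the most of both genes, and the groups did not overlap. The other 8 lens markers on the list did not pass the filter.

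Among neuronal markers, 4 of 16 passed the filter. Syt1, a calcium sensor of synaptic vesicles, was at 1.08 and 1.45 FPKM without bFGF and 3.23 and 4.07 with it, and Tubb3 and Gap43 rose by 1.44 and 1.29 on the log2 scale. Mapt, which encodes tau, fell from 3.98 and 5.40 FPKM to 1.26 and 2.37. Of the glial genes, Glul, glutamine synthetase, rose from 18.7 and 18.8 FPKM to 26.2 and 32.6, while Apoe, a lipid carrier, fell from 47.3 and 49.0 to 17.7 and 21.4.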
